A study of Homo sapiens with 8 samples.

Results

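This report describes the RBFOX2 eCLIP peaks of HEK293T cells that lay outside every annotated gene. A peak was taken when its midpoint on chromosomes 1 to 22 fell in no gene span of any biotype (protein-coding, long noncoding RNA, small RNA or pseudogene) in a RefSeq table of GRCh38.p14. Of 259771, 273248, 279594 and 272210 called peaks on these chromosomes in replicates 1 to 4, 4008, 4294, 4370 and 4213 met that rule, 16885 in all. Among the called peaks position alone chose them, so the rule did not use their enrichment or strand. The calling of peaks came first, so their folds are not those of unselected positions.

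HEK293T is a human embryonic kidney cell line that carries a viral large T antigen. The series held 4 IP libraries and 4 input libraries, all from HEK293T cells crosslinked with 254 nm light at 400 mJ/cm2. The labels name no other treatment, genotype or time. Each IP targeted RBFOX2, and 2% of the same sample served as the input of the same number. Each deposited list sets 1 IP against its own input and gives every peak a −log10 p and a log2 fold of IP over input, units that were read from the values. An IP without RBFOX2 was not analysed here, so input is the only background, and read counts were not used, so the depth behind a peak is unknown.

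RBFOX2 is an RNA-binding protein of the RBFOX family that recognises the RNA word GCAUG, usually within UGCAUG, and is best known for binding introns beside alternative exons and steering their splicing. In eCLIP, ultraviolet light ties a protein to the RNA it touches, the protein is pulled down, and the recovered RNA is sequenced. RNA polymerase II also transcribes stretches that carry no gene name. It can run past the end of a gene (readthrough), it can start in the opposite direction at an active promoter (upstream antisense RNA), and it makes long noncoding RNAs that no catalogue lists.

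Sequence could be read where a RefSeq promoter window (GRCh38.p14, 250 bases before to 50 after a gene's start) covered a peak region. Called peaks of the 4 lists were merged by strand, and 23 regions outside genes with a peak in all 4 replicates shared at least 40 nt with such a window. Of these, 8 had a log2 fold of IP over input above 0 by limma (adjusted p at most 0.05). By the same limit, 21.1% of all 49493 regions tested in the series were higher, and 17.4% of the 597 outside genes. The 8 are shown because they are the regions called by limma beside a gene start whose letters the reference gives. Among them, the region with the higher mean at PDCD4 and at YJEFN3 also held an enriched peak in at least 1 replicate. A region near EXOC2 that is not among the 8 held one too. GCATG, the DNA spelling of the RBFOX core word, is in capitals, and each stretch reads 5′ to 3′ on the strand of the peaks. The PDCD4 stretches are chr10:110871678-110871763 (the part of its region that the window covers) and chr10:110871809-110871899, minus strand. Those of YJEFN3 are chr19:19528816-19528907 and chr19:19528661-19528762, plus strand. The others are LOC124904605 (chr19:304497-304611, minus), EXOC2 (chr6:693321-693389, plus), NPBWR2 (chr20:64107736-64107798, plus) and HOXD4 (chr2:176151300-176151432, plus). The stretches of LOC124904605, EXOC2 and HOXD4, and that of YJEFN3 further from the gene, are likewise only the covered part of longer regions.
PDCD4, the stretch further from the gene: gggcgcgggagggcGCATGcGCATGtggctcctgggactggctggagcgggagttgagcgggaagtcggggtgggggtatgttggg
YJEFN3, the stretch nearer to the gene: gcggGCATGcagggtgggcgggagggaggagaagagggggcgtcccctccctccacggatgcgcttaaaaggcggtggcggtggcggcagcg
YJEFN3, the stretch further from the gene: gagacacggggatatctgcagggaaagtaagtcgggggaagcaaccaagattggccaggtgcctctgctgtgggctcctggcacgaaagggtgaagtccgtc
PDCD4, the stretch nearer to the gene: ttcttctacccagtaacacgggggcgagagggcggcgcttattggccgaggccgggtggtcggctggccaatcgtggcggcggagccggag
LOC124904605: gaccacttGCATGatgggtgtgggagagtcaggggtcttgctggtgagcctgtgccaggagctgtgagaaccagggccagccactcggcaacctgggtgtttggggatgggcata
EXOC2: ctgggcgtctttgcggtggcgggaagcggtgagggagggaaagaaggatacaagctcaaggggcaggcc
NPBWR2: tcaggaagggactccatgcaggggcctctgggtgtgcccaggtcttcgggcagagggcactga
HOXD4: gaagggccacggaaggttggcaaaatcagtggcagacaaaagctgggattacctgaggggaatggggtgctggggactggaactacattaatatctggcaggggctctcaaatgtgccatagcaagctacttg
The word was present in 3 of the 8 stretches, and in 6 of all 23. The PDCD4 stretch with the higher mean held 2 copies, 1 base apart, and the YJEFN3 stretch nearest the gene start and the LOC124904605 stretch held 1 each. The 3 uncalled stretches with the word lay by PPP1R26-AS1, which held 2 overlapping copies at a mean log2 fold of −0.25 ± 0.96 (SD, n = 4; limma adjusted p = 0.707), by FMNL3 (1.08 ± 0.83, limma adjusted p = 0.111) and by PSME2 (0.78 ± 1.59, limma adjusted p = 0.443). The other 5 called stretches held none, which says only that these letters are not in the part of the region that was read. Among all 33558 promoter windows of 300 nt, 19.5% held GCATG on the gene's strand and 29.4% on either strand. The 8 stretches shown are shorter (63 to 133 nt) and were read on the peaks' strand only, so these shares give no expected rate for them. Over all peaks that lay wholly in a window, GCATG was found on the RNA strand in 20 of 471 peaks outside genes (4.25%) and in 440 of 8518 inside genes (5.17%). The reverse complement CATGC was found in 17 (3.61%) and 285 (3.35%) of the same peaks. Per kb of peak, the word occurred 0.845 times outside genes and 1.01 times inside. In replicates 1 to 4 the share outside genes was 2.48%, 2.68%, 6.35% and 5.36%, against 4.78% to 5.91% inside, so the range outside spanned that inside.

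PDCD4 encodes a protein that binds the helicase eIF4A and holds back translation, and its stretches ran against the gene's direction, upstream of its start. The region with the paired word had log2 folds of 3.39, 2.702, 3.81 and 2.58 in replicates 1 to 4 (mean 3.12 ± 0.58, SD, n = 4; limma adjusted p = 0.00574), all above 0. The neighbouring PDCD4 region without the word had folds of 3.32, 2.59, 2.00 and 1.32 (mean 2.31 ± 0.85; limma adjusted p = 0.0172). YJEFN3, a protein with a YjeF N-terminal domain, had a region ending just before its start with folds of 2.7, 1.88, 2.66 and 3.81 (mean 2.76 ± 0.79; limma adjusted p = 0.00977). Its second region averaged 2.68 ± 0.46 (limma adjusted p = 0.0061), and the part that the window covered did not hold the word. LOC124904605 averaged 2.15 ± 0.60, EXOC2, an exocyst subunit, 1.73 ± 0.57, NPBWR2, a receptor for neuropeptides B and W, 1.48 ± 0.42, and HOXD4, a homeobox factor, 1.02 ± 0.20. These 8 regions lay on the antisense strand upstream of a gene at PDCD4, EXOC2 and NPBWR2, and on the gene's own strand upstream of it at YJEFN3, LOC124904605 and HOXD4. The YJEFN3 regions lay in a gap of 712 nt behind which is NDUFA13, also on the plus strand, so they were downstream of NDUFA13 on its strand as well. Likewise, the HOXD4 region lay in a gap of 1137 nt downstream of MIR10B, another plus-strand gene.

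Peaks outside genes made up 1.54% to 1.57% of the called peaks of chromosomes 1 to 22 (mean 1.56% ± 0.0133, SD, n = 4). The share depends on the catalogue, since 5.60% of peaks lay outside protein-coding spans alone. The median distance to the nearest gene end was 4032 nt, with the middle of the range between 1239 and 12199 nt and the farthest peak 174979 nt away. Within 1 kb of a gene lay 3677 peaks (21.8%), and 153 peaks still overlapped a gene span with their edge. By distance, 9350 peaks (55.4%) lay under 5 kb from a gene, 6725 (39.8%) at 5 to 50 kb and 810 (4.80%) over 50 kb. Within 500 nt of the 5 kb limit, 419 peaks lay on the near side and 420 on the far side, with mean log2 folds of −0.037 and −0.035. Within 5 kb of the 50 kb limit, 173 peaks lay on the near side and 114 on the far side, with means of −0.033 and −0.15.

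**Figure D1:**
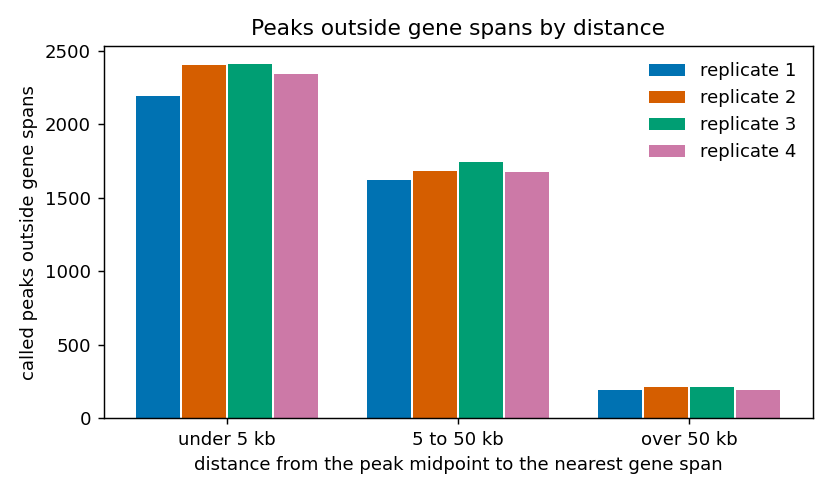
Called peaks outside gene spans (y axis, count) by distance from the midpoint to the nearest gene span (x axis), with 1 bar per replicate. In each replicate the class under 5 kb is the tallest (2196 to 2413 peaks) and the class over 50 kb the shortest (193 to 212 peaks).

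The kinds of genes nearest to these peaks differed with distance. The nearest gene was protein-coding for 48.8% ± 0.79 (SD, n = 4) of the peaks, a long noncoding RNA gene for 29.4% ± 0.78, a pseudogene for 16.7% ± 0.14 and a small RNA gene for 5.12% ± 0.082. Protein-coding genes are 33.7% of the gene table and pseudogenes 27.7%. Under 5 kb, protein-coding genes were nearest for 58.9% of peaks and pseudogenes for 13.03%. Over 50 kb, the order turned, with pseudogenes nearest for 41.1% ± 1.4 and protein-coding genes for 18.6% ± 2.44. Chromosomes 21 and 7 had the largest shares of their peaks outside genes, 3.25% ± 0.0998 and 3.22% ± 0.106, and chromosomes 10 and 4 the smallest, 0.724% ± 0.0387 and 0.913% ± 0.0516.

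The peaks were concentrated in few places and on 1 strand of each. Gene spans on chromosomes 1 to 22 left 34295 gaps between them, and 1747 gaps (5.09%) held a peak. All 4 replicates had a peak in 598 of these. The 20 fullest gaps held 3539 peaks, 21.0% of the total, and each of the 20 was wholly on 1 strand, 13 on the plus strand. Of 396 gaps with at least 10 peaks, which held 13056 peaks (77.3%), 389 (98.2%) had every peak on the same strand. Only 15 of those 13056 peaks (0.115%) lay on the rarer strand of their gap. The most mixed of the other 7 gaps was the 701 nt between E4F1, a ubiquitin ligase and transcription factor, and DNASE1L2, an endonuclease, where 7 of 10 peaks were on the plus strand. For scale, 99.4% ± 0.0114 (SD, n = 4) of peaks inside a single gene span of known strand lay on that gene's strand.

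**Figure D2:**
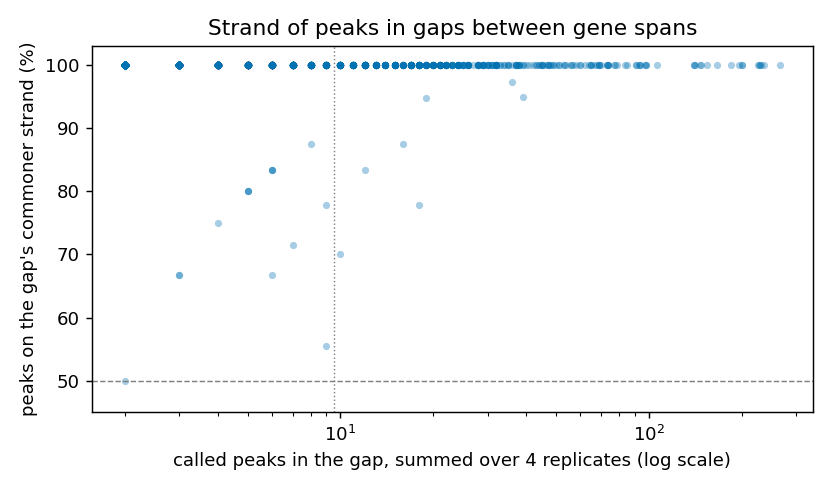
Each point is a gap between gene spans with at least 2 peaks. The x axis gives its called peaks summed over 4 replicates (log scale) and the y axis the percentage on the commoner strand. The dashed line marks equal use of both strands and the dotted line the limit of 10 peaks. Of 1198 gaps, 1176 sit at 100%.

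The fullest gap lay between CALCR, the calcitonin receptor gene, and the ribosomal protein pseudogene RPS27P17 on chromosome 7. It held 63, 69, 64 and 70 peaks in replicates 1 to 4, 266 in all, every one on the plus strand, while CALCR lies on the minus strand. The same strand was used further along, in the gap from RPS27P17 to the microRNA gene MIR4652 (79 peaks) and from MIR4652 to NDUFAF4P2 (196 peaks). BMPER, a secreted regulator of BMP signalling on the plus strand, was followed by 54, 68, 52 and 63 plus-strand peaks. None of these lay within 53.1 kb of BMPER, and the last was 140.5 kb away. VRK1, a nuclear kinase gene, had 231 plus-strand peaks between 0.259 and 61.9 kb from its span, which ran through nearly the whole gap to LINC00618.

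DLEU1, a long noncoding RNA gene on the plus strand, was followed by 229 plus-strand peaks from 0.214 to 149.7 kb beyond its end. The noncoding gene NIHCOLE had 226 peaks of its own strand beyond its end. The gap from MIR1273C to TIAM2, a guanine nucleotide exchange factor gene, held 228 plus-strand peaks, and the gap before it, from SCAF8, a regulator of transcript 3′ ends, to MIR1273C, held 77 more. The minus-strand peaks between LINC01901 and MIR924HG began 40.02 kb from LINC01901 and ran up to the start of MIR924HG, which is itself on the minus strand (52, 51, 52 and 46 peaks). ATXN7L1, a minus-strand gene, had 51, 50, 50 and 50 plus-strand peaks past its start, the direction opposite to the gene. The median log2 fold of each of these 8 gaps lay between −0.000866 and 0.000771, and 0 of their peaks were enriched.

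**Figure D3:**
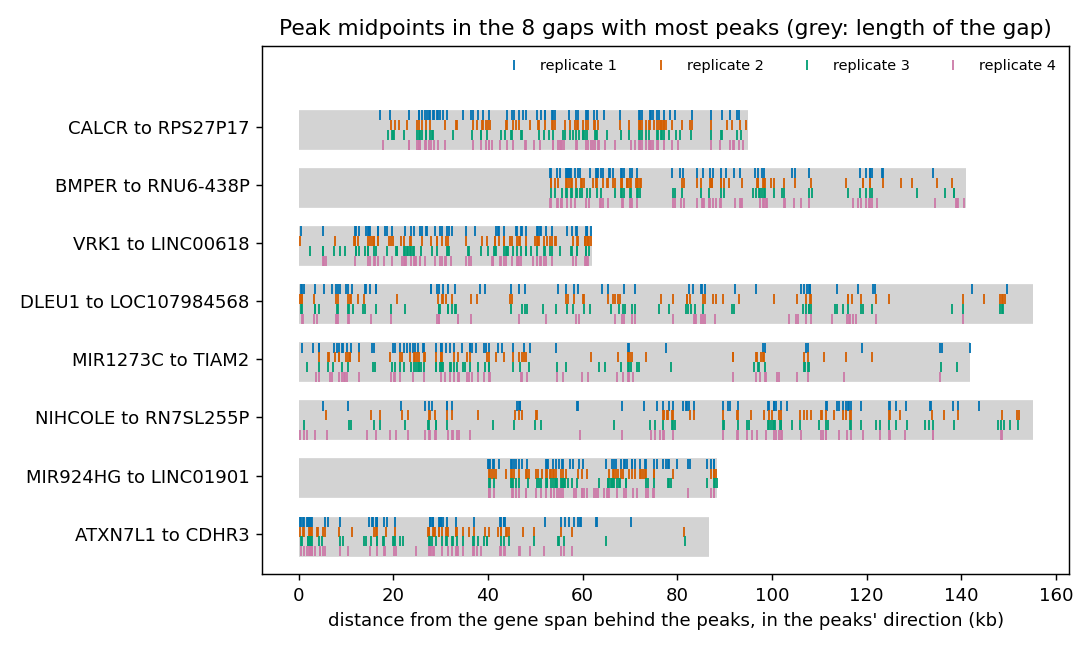
Midpoints of called peaks in the 8 gaps with most peaks, chosen by that count. The x axis gives the distance in kb from the gene span behind the peaks, in the direction of the peaks' strand. Rows within a gap are replicates 1 to 4 and grey bars show the length of the gap. The 4 replicates fill the same part of each gap, and in 3 gaps the peaks begin 17.3, 53.1 and 40.02 kb from the span behind them.

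The direction of the neighbouring genes was compared with that of the peaks where both were known. Strand was known for 27903 of 56756 gene rows, and both flanking genes of 5973 peaks had one. Both neighbours shared the peak's strand for 40.8% ± 1.43 (SD, n = 4) of these peaks and neither did for 9.23% ± 0.490. The gene behind the peak alone, of which the peak lies downstream, shared its strand for 30.7% ± 1.19, and the gene ahead alone for 19.3% ± 0.733. The difference between the last 2 shares was 11.4 ± 1.42 percentage points, above 0 in 4 of 4 replicates (exact two-sided sign-flip permutation, p = 0.13). That p, 2 of the 16 possible sign assignments, is the smallest that 4 replicates allow, so no such test here could reach 0.05.

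The nearest gene had a known strand for 10168 of the 16885 peaks. Of these, 45.9% ± 0.380 (SD, n = 4) lay downstream of that gene on its own strand and 12.5% ± 0.275 downstream on the other strand. Upstream, 24.0% ± 0.872 lay on the gene's strand and 17.6% ± 0.854 on the other. The same-strand excess was 33.4 ± 0.561 percentage points downstream and 6.38 ± 1.69 upstream, each above 0 in 4 of 4 replicates (exact two-sided sign-flip permutation, p = 0.13 for both). Over 50 kb, 74.2% ± 2.56 of the 317 peaks with a known strand, out of 810, lay downstream on the same strand. Of these 235 peaks, 98 lay beyond BMPER alone, so the share leans on this place. The replicates count the same places again, and the SD does not measure the spread between places. The share with a log2 fold of at least 0.9 was 23.7% ± 1.73 downstream on the gene's strand and 27.5% ± 2.18 upstream on the opposite strand. The replicates ranged from 21.6% to 25.4% and from 24.8% to 29.7%, so the ranges overlapped, although within each replicate the second share was higher; this difference was not tested.

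Few peaks outside genes were enriched in the IP. A peak counted as enriched when its log2 fold and its −log10 p, both as the authors gave them, were each 3 or more. There were 8, 12, 8 and 14 such peaks outside genes in replicates 1 to 4, 42 in all, 0.249% ± 0.0699 (SD, n = 4). Over all called peaks of chromosomes 1 to 22, 0.87%, 0.857%, 0.798% and 0.786% were enriched in the 4 replicates, and inside genes 0.837% ± 0.0431, so that the share inside was 3.37 times that outside. The difference of −0.588 ± 0.0934 percentage points was below 0 in 4 of 4 replicates, and the ranges did not overlap (exact two-sided sign-flip permutation, p = 0.13). At a −log10 p of at least 5, 13 peaks outside genes remained and the ratio was 5.99. Without the chromosome 9 region near LOC107987007, 33 remained and the ratio was 4.28.

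A large share of the peaks outside genes sat at 1 value close to a log2 fold of 0. In each list the commonest log2 fold, between −0.000866 and 0.00141, was shared by 49.4% ± 1.11 (SD, n = 4) of peaks outside genes and 41.8% ± 0.95 inside. It was shared by 47.0% ± 1.84 of peaks under 5 kb and 57.8% ± 2.46 of those over 50 kb. A fold of at least 0.9 was reached by 24.2% ± 1.13 outside and 27.5% ± 1.27 inside, a difference of −3.32 ± 0.447 points that was below 0 in 4 of 4 replicates. A fold of −0.9 or less was found for 19.8% ± 0.24 outside and 20.8% ± 0.524 inside (difference −0.933 ± 0.424, 4 of 4 replicates). Each of these differences had an exact two-sided sign-flip p of 0.13. The limit of −1 itself falls on a step of the values, and gave 19.8%, 5.57%, 6.04% and 19.96% in replicates 1 to 4 with nearly the same difference, −0.929 ± 0.432.

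With limits at 5 and 50 kb, the share of enriched peaks was highest in the class closest to genes. Under 5 kb, 39 peaks were enriched (0.416% ± 0.112, SD, n = 4), at 5 to 50 kb 3 peaks (0.0452% ± 0.0302), and over 50 kb 0 of 810. Of the 3 peaks at 5 to 50 kb, each lay near LOC100996709. The class under 5 kb exceeded the next by 0.371 ± 0.102 percentage points in 4 of 4 replicates, and the middle class exceeded the farthest by 0.0452 ± 0.0302 in 3 of 4 (exact two-sided sign-flip permutation, p = 0.13 and 0.25, both 0.25 after Benjamini-Hochberg adjustment). With limits at 2 and 20 kb the differences were 0.0772 ± 0.0918, smaller than its spread, and 0.270 ± 0.117 (exact two-sided sign-flip p = 0.25 and 0.13). At a −log10 p of at least 5, the first difference was 0.14 and the second 0. A fold of at least 0.9 was reached by 26.6% ± 1.21, 21.3% ± 1.30 and 20.2% ± 4.69 of the classes from near to far, and the last 2 overlapped. The highest −log10 p over 50 kb was 1.93.

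**Figure D4:**
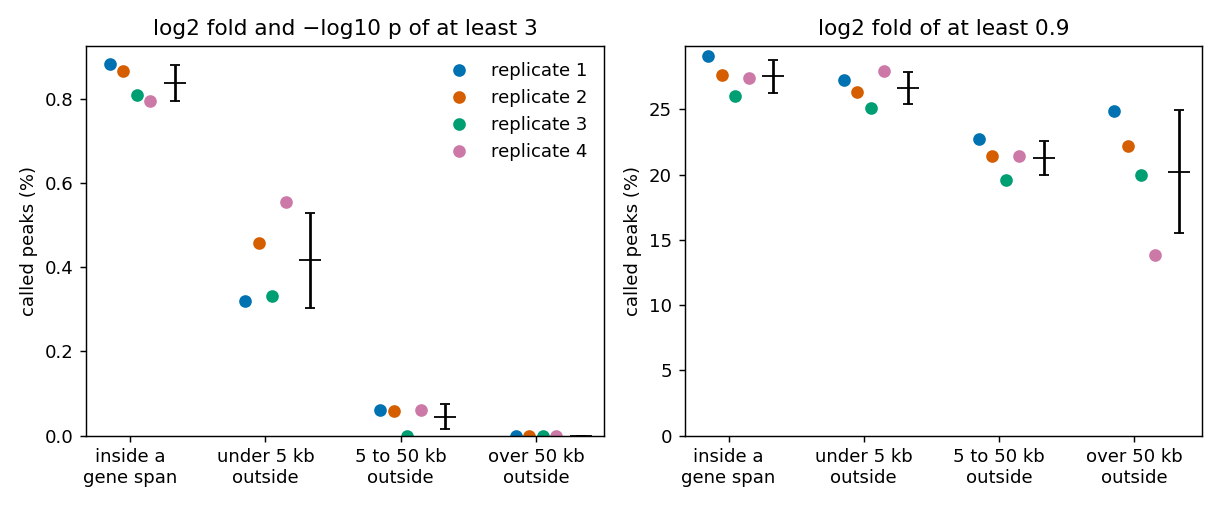
Percentage of called peaks (y axis) that were enriched (left) or had a log2 fold of at least 0.9 (right), inside genes and in the 3 distance classes outside (x axis). Points are replicates and the black mark is the mean ± SD (n = 4). At left all 4 points of the class under 5 kb (0.319% to 0.556%) lie below all 4 inside genes (0.793% to 0.881%).

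The 42 enriched peaks lay near 17 genes, and 4 of these held 25 of them (59.5%). LOC107987007, a long noncoding RNA gene, had 10, HES4, a basic helix-loop-helix repressor of the Hes family, had 8, LINC03048 had 4 and LOC100996709 had 3. LOC105369647, HOXC8 and PDCD4 also had enriched peaks in at least 2 replicates. The other 10 genes, among them EXOC2, YJEFN3, the microRNA gene MIR296, the zinc finger gene ZNF589 and the complex I subunit gene NDUFA13, had 1 peak each. With called peaks merged over replicates, 41 of the 42 fell in 23 regions whose midpoint also lay outside genes, near 16 of the genes; the peak near CCDC61 fell in a region with its midpoint inside a gene. Of the 23 regions, 8 were enriched in at least 2 replicates (34.8%, against 50.7% of such regions inside genes). All 23 had a called peak in every replicate.

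The strongest region lay at chr9:61983986-61984331 on the plus strand, 2537 nt downstream of LOC107987007 and on its strand. Its log2 folds were 6.4, 5.57, 5.82 and 5.28 (mean 5.77 ± 0.47, SD, n = 4; limma adjusted p = 0.00408), with −log10 p values of 47.0, 25.5, 30.8 and 20.3. A second region of the same gene, chr9:61982811-61982946, averaged 3.29 ± 0.36 and was enriched in 1 replicate. The next was chr17:380191-380433 (minus), 9206 nt from LOC100996709, with folds of 3.91, 4.09, 3.59 and 3.81 (mean 3.85 ± 0.21; limma adjusted p = 0.00408). It was the only region over 5 kb from a gene with an enriched peak, and replicate 3 missed only the limit on p (2.74).

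HES4 had a pair of regions downstream on its own minus strand. At chr1:997412-997683 the folds were 2.999, 4.17, 2.91 and 3.64 (mean 3.43 ± 0.59; limma adjusted p = 0.00499), and at chr1:997754-997835 they were 2.999, 3.06, 3.81 and 3.58 (mean 3.36 ± 0.40; limma adjusted p = 0.00445). They lay 1417 and 1170 nt from the gene. In replicate 1 the fold at both was 2.999 with a −log10 p of 2.88, just under the limits. On the far side of HES4, upstream, 69 peaks in the gap to RPL39P12 were all on the plus strand, with a median fold of 1.00 and 0 enriched.

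The remaining regions with an enriched peak in at least 2 replicates were those of PDCD4, above, LOC105369647, LINC03048 and HOXC8. LOC105369647 had chr12:9412518-9412681 (minus, downstream on the opposite strand), with folds of 3.32, 3.09, 2.46 and 3.25 (mean 3.03 ± 0.39; limma adjusted p = 0.00474). LINC03048 had chr17:81390014-81390143 (minus, upstream on its strand), where replicate 3 stood apart with 1.22 against 3.86, 3.32 and 3.64 in the others (mean 3.01 ± 1.21; limma adjusted p = 0.0172). HOXC8, a homeobox gene of the HOXC cluster, had chr12:54012891-54013138 (plus, 245 nt beyond the higher end of its span), with 2.11, 3.001, 2.66 and 3.46 (mean 2.81 ± 0.57; limma adjusted p = 0.00648). BEND3P3, a transcribed pseudogene, had a region 480 nt away that averaged 3.2 ± 0.45 without an enriched peak in any replicate, since its −log10 p was 2.74 at most.

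**Figure D5:**
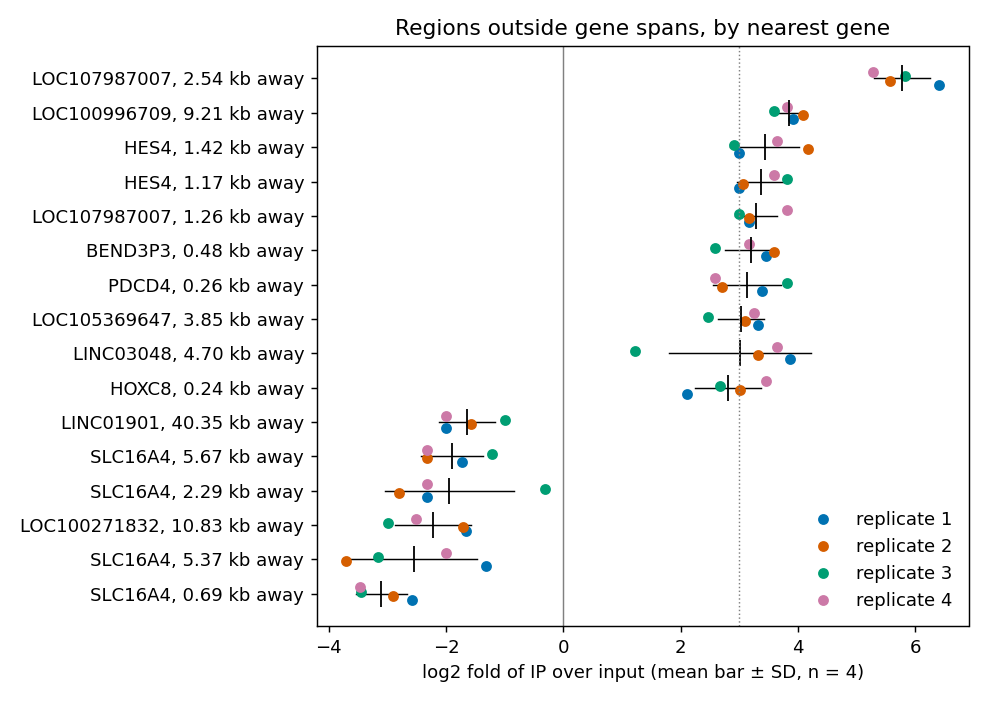
Log2 fold of IP over input (x axis) in each replicate for the named regions outside genes (y axis, nearest gene and distance). Points are replicates, the vertical tick is the mean and the line ± SD (n = 4). The dotted line marks a log2 fold of 3. The 10 upper regions have all 4 points above 1 and the 6 lower ones all 4 below 0.

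Across all regions with a peak in each replicate, the mean log2 fold was tested against 0 with limma, adjusted over all 49493 regions of the series. Of 11441 merged regions outside genes, 8340 (72.9%) had a peak in 1 replicate only, and 597 (5.22%, against 7.03% inside genes) had one in all 4. Of these 597, 104 (17.4%) were higher in the IP and 11 (1.84%) lower, where 21.1% and 1.81% of all regions tested were higher and lower. The 104 regions had a median mean fold of 2.11, and 77 of them lay under 5 kb from a gene, 26 at 5 to 50 kb and 1 over 50 kb. They were nearest to 65 genes. HES4 had 7 of its 9 tested regions among them, LOC100996709 7 of 7, NPBWR2 7 of 12 and HOXC8 4 of 8.

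The test rested on all 4 replicates. Without replicate 1, 2 or 4, 0 regions outside genes passed by limma, and 0 of the 62749 to 64417 regions of the whole series did, with the smallest adjusted p between 0.0504 and 0.0517, while 155, 169 and 166 outside genes were higher at an unadjusted p under 0.05. Without replicate 3, 21 were higher (2.696% of those tested, against 3.77% of all regions) and 3 lower. The 16 regions named in full were chosen by enriched peaks or by limma calls. Each of them lost its limma call without replicate 1, 2 or 4, and 4 of them without replicate 3. Their means stayed between 84.9% and 128% of the value from all 4, 5.56 to 5.93 at the region near LOC107987007 with the highest mean and 3.77 to 3.93 at LOC100996709, and the median adjusted p over these fits was 0.0517. Against a fold of 1 in place of 0, 26 regions were higher (4.36%, against 5.60% of all regions) and 1 lower.

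Of the 11 regions lower in the IP, 4 of the 6 lowest lay between RBM15, a subunit of the complex that methylates adenosine in RNA, and SLC16A4, a monocarboxylate transporter family gene. The lowest, chr1:110362112-110362219, had folds of −2.59, −2.91, −3.46 and −3.46 (mean −3.10 ± 0.43, SD, n = 4; limma adjusted p = 0.00482). The other 3 averaged −2.55 ± 1.08, −1.94 ± 1.11 and −1.90 ± 0.53. This gap held 24, 19, 23 and 28 peaks, all on the plus strand, which is that of RBM15 and opposite to SLC16A4, and its median fold was −1.27. LOC100271832 had a region 10831 nt upstream that averaged −2.22 ± 0.64 (limma adjusted p = 0.0119), and the gap between MIR924HG and LINC01901 held one that averaged −1.65 ± 0.47 (limma adjusted p = 0.0175). The deposited −log10 p was 0 for all of these, as it was for every fold below 0, so the lists themselves give no p for depletion.

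Peaks outside genes met a peak of another replicate less often than those inside. On average over the other 3 replicates, 32.0%, 30.4%, 29.8% and 30.9% of the peaks outside genes in replicates 1 to 4 overlapped a called peak on the same strand by at least 1 nt (mean 30.8% ± 0.943, SD, n = 4). Inside genes the share was 36.4% ± 0.697. The difference of −5.62 ± 0.351 points was below 0 in 4 of 4 replicates (exact two-sided sign-flip permutation, p = 0.13). By class, the shares were 33.6% ± 1.27, 27.6% ± 0.865 and 24.99% ± 0.312 from near to far, each class below the one before it in 4 of 4 replicates (p = 0.13 for both, exact test, 0.13 after Benjamini-Hochberg adjustment).

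Counting peaks by their nearest gene gave a different order from counting enriched peaks. The genes nearest to most peaks were LOC124905094 (221 peaks), MIR1273C (216), the 7SL pseudogene RN7SL255P (212), RPS27P17 (206), MIR4652 (186), MIR924HG (182), ATXN7L1 (164), the U6 pseudogene RNU6-438P (147), DLEU1 (137) and NPBWR2 (133). Only LOC124905094 among these had an enriched peak, and it had 1. NPBWR2 stood apart in its folds, with a median log2 fold of 1.58 and 70.7% of peaks at 0.9 or more, against 11.8% to 34.8% for the other 9. Its 133 peaks were all on the plus strand, opposite to the gene. Under 5 kb, the genes with most peaks were LOC124905094 (89), HOXC8 (71), HES4 (62), FAM95C (54) and NPBWR2 (54). HOXC8 and HES4 had median folds of 1.12 and 1.64 there, with 60.6% and 75.8% of peaks at 0.9 or more.

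At 5 to 50 kb, the genes with most peaks were RPS27P17 (183), MIR1273C (168), MIR924HG (167), MIR4652 (150) and LOC124905094 (132), with medians between −0.000866 and 0.00141. Over 50 kb they were RN7SL255P (110), BMPER (98), LOC105370213 (83), RPL13AP25 (58) and RNU6-438P (52). Joined where less than 10 kb apart, the 810 peaks over 50 kb from a gene formed 54 stretches, of which 18 had a peak in each replicate and 21 were a single peak. The 3 fullest held 377 peaks (46.5%), all on the plus strand. One at chr7:34209538-34247270, between BMPER and RNU6-438P, had 37, 46, 31 and 36 peaks. The next, chr13:54581881-54687132, between RPL13AP25 and LOC105370213, had 37, 31, 36 and 37 and held the most distant peaks of the set. The last, chr5:104155591-104209627, between NIHCOLE and RN7SL255P, had 24, 19, 23 and 20. Their median folds lay between −0.000497 and 0.000771, and the highest single fold in them, 3.32 near BMPER, had a −log10 p of 1.93.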

How the data were processed

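The authors deposited 1 headerless peak list per IP library, each against the input of the same number. Per the submitters' processing notes, UMI-tools 1.1.1, cutadapt 3.2 and STAR 2.7.7a were used, with the builds hg38 and GRCh38.p13. The peak caller, the scaling of IP to input, the p-value test and the filters are not given in the sources used here. Judged by their values, the deposited columns hold the authors' −log10 p-value of each peak and its log2 fold over the paired input. These values move in steps, so a limit of 3 or −1 falls on a step. Comparing them between lists assumes 1 scaling for all.

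Peaks of chromosomes 1 to 22 were matched by midpoint to a RefSeq gene table of GRCh38.p14, whose rows carry no strand. A gene missing from it counts as outside. Strand came from the RefSeq promoter table and a microRNA table for 27903 of 56756 rows. Coordinates are 1-based and those of the lists.

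Shares were compared over the 4 replicates with exact two-sided sign-flip permutations. The labels do not say that replicates came from separate cultures, so p-values measure only the spread between these samples. Called peaks of all chromosomes were merged by strand (overlap of at least 1 nt), and 49493 regions with a peak in each replicate took the fold of the peak with the highest −log10 p. Their mean was tested against 0 with limma 3.58.1 (eBayes, two-sided, Benjamini-Hochberg over all regions, threshold 0.05) in R 4.3.3. Taking the peak with the highest −log10 p favours folds above 0, since that value was 0 for every fold below 0. Position matching and the limma test were tested on simulated data. Python 3.11.15, numpy 2.4.6, pandas 2.3.3, scipy 1.17.1 and matplotlib 3.10.9 were used.

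Named in full were regions with an enriched peak in at least 3 replicates or, as these were fewer than 6, in at least 2, the 6 highest and 6 lowest means among limma calls, the genes nearest to most peaks (10 in all, 5 per class), and the 3 fullest stretches over 50 kb from a gene with a peak in each replicate. Gaps, promoter regions and other named genes were chosen after their values were seen. The members and lists were chosen with earlier results of these data known. Chromosomes X and Y and unplaced contigs stayed outside the rule. Regions on chromosome 8 were left out of the 23 regions read in promoter windows. The counts over all windows and over peaks within windows did not leave that chromosome out.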

Additional observations from a re-analysis of the deposited data

Results flagged for a closer look

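Among peaks 5 to 50 kb from a gene, replicate 3 stood apart from the other replicates with 0 enriched peaks (0%), where each of the others had 1. Of 44 groups of 4 replicates compared in this way, 2 had such a sample, the count and the share of this class. Chance alone gives about 1 in 20 for continuous values, a rate that does not hold for counts of 0 and 1. Both flags rest on the same missing peak. The region near LOC100996709 had a log2 fold of 3.59 and a −log10 p of 2.74 in replicate 3, just under the limit on p. Chromosome X, which the rule left out, had a mean of 171 ± 15.9 called peaks outside genes (SD, n = 4; 148 to 184 per replicate), 2.09% ± 0.134 of its called peaks, and 0 of them were enriched.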

How the results depend on the processing

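The share of peaks outside genes was 1.54% when the whole peak had to lie outside and 5.60% against protein-coding spans only. Among the tested regions outside genes, limma called 26 higher and 1 lower against a log2 fold of 1, and from 0 to 21 higher and from 0 to 3 lower with 1 replicate left out. With the mean fold over a region's peaks it called 88 and 11, and with robust eBayes 131 and 13. Of 112 alternative limma values for the 16 regions named in full, 54 kept the call, 58 lost it and 0 reversed. The test against a fold of 1 gave 6 of the losses.

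The difference in enriched share between peaks outside and inside genes ranged from −0.818 to −0.386 percentage points over 10 alternatives, that in depleted share from −1.09 to −0.0504 over 6, and that in overlap between replicates from −5.88 to −3.60 over 6, all below 0. The class differences ranged from 0.0772 to 5.36 (under 5 kb against 5 to 50 kb) and from 0 to 1.06 (5 to 50 kb against over 50 kb) over 8 alternatives each, the upper ends being the shares with a fold of at least 0.9 and no limit on p. The limits of 2.9, 0.9 and −0.9 on the fold, the limit of 3.1 on −log10 p in replicates 2 and 3, and leaving out the region near LOC107987007 were chosen after seeing the data. No paired analysis was possible because no block could be added: every deposited fold is already IP against its own input, no input has a value alone, and the tests over replicates already compare shares within each replicate.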

Other observations

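Of the 200 gaps with most peaks outside genes, 7 were flanked by a gene or antisense RNA with a HOX name and held 276 peaks over the 4 replicates. These gaps were looked up after values near HOXC8 had been seen, so they support no theme. The median log2 fold was 1.00 between HOXC9 and HOXC8 (84 peaks, all plus), 1.00 beyond HOXC8 (32 peaks, of which 2 were enriched), 1.07 between MIR196A2 and HOXC-AS2 (35 of 36 peaks plus), and 1.00 between MIR10B and HOXD4 (21 peaks). It was 0.71 between HOXC-AS2 and HOXC-AS1 (32 peaks), 0.41 between HOXB8 and HOXB9 (47 peaks, all minus), and 0.39 between HOXD11 and HOXD10 (24 peaks). The median reached 0.9 in 4 of these 7 gaps, against 18 of the 200. The gap from LOC401021 to MIR10B adjoins the counted gap from MIR10B to HOXD4, but neither of its flanks has a HOX name. It was left out of the 7 and had a median log2 fold of 0.00141 (47 peaks). Both tested regions near HOXD4 were higher in the IP by limma (means of 1.02 and 1.396), and the region by HOXD10 did not pass (mean 0.89 ± 0.69, SD, n = 4; limma adjusted p = 0.129).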
